A study of Mus musculus with 3 samples.

Results

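The cytochrome P450 genes of the mouse are described here by the level of 5-hydroxymethylcytosine (5hmC) over their gene bodies in cerebellum. Members were the protein-coding RefSeq genes of GRCm38 whose symbols consist of Cyp, a number, a letter and a number, such as Cyp2c39. The rule found 92 genes among 21672 protein-coding genes with a measured bin, on 14 autosomes. Genomic DNA was profiled in 3 samples, 1 per group in the labels, each with 1 column of values that is called a library here. By their headers both DDD-seq columns may pool several runs or several libraries. The groups were a normal control by DDD-seq (CON1 in the labels), chronic sleep deprivation by DDD-seq (CCD1) and ACE-seq of cerebellum (A-1), whose treatment label is also control. Both are enzymatic deamination methods in which cytosines that still read as C are taken as 5hmC. All 3 libraries carry the same protocol text, which names the deaminase domain SsdAcat. Strain, age, sex and the number of animals behind a library are not given in the sources used here.

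Cytochromes P450 are heme enzymes that insert an oxygen atom into their substrates with electrons supplied by partner reductases. Families 1 to 3 oxidise drugs and other foreign compounds, family 4 hydroxylates fatty acids and eicosanoids, and most remaining families make or break down steroids, bile acids, oxysterols, vitamin D and retinoic acid. Many genes of the drug-metabolising families stand in tandem arrays of similar copies and are expressed mainly in liver, kidney, lung or nasal tissue. Several of the others are single genes with a known role in brain. 5hmC is made from 5-methylcytosine by TET enzymes and is abundant in neurons, where it is known to be higher over the bodies of expressed genes.

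The level of a gene is the mean, in percent, over the 10 kb bins it overlaps, and its standard error (SE) is taken over those bins. All 92 members had at least 1 bin with a value in each library. Members overlapped 1 to 23 bins, with a median of 3, and covered 337 different bins. Of them, 10 had a single bin and so no SE, 14 shared a bin with another member and 13 shared one with a gene that is no member. Since every group is a single column of values, no test of a condition or a method was possible, and an SE over bins says nothing of the spread between animals. The table gives no read counts, so the depth behind each level is unknown. Values for the 3 libraries are given throughout in the order control DDD-seq, sleep-deprived DDD-seq, control ACE-seq. The tissue label was compared with marker genes: 8 granule cell genes had medians of 1.76%, 1.65% and 1.67%, with 6.52% at Etv1, 5.36% at Kcnd2 and 1.06% at Neurod1 in the first library. The 7 liver genes had 1.23%, 1.35% and 1.203%, from 0.93% at Serpina1a to 2.17% at Ttr.

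P450 genes had low 5hmC levels. Their medians were 1.04%, 1.08% and 1.04%, where those of all protein-coding genes were 1.33%, 1.31% and 1.29%. Below the median of all genes lay 77, 72 and 79 of the 92 members. In all 3 libraries at once it was 58 members (63.0% of members), and 30.3% of all genes. Below the lower quartile of all genes (1.12%, 1.13% and 1.08%) in every library lay 28 members, or 30.4%, where 7.89% of all genes did. The gap was wider at longer genes, whose means rest on more bins. Of the 23 members of at least 5 bins 11 were that low (47.8%), against 2.01% of all genes of that size. Above the median of all genes in every library lay 5 members, or 5.43%, where 32.7% of all genes did. These were Cyp7b1, Cyp39a1 and Cyp46a1, which act on cholesterol or oxysterols, with Cyp1b1 and Cyp2j12.

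The order of single members differed between libraries. Across the 92 members Spearman's rho was 0.441 between both DDD-seq libraries and 0.308 between the controls of both methods. Over all genes the same values were 0.671 and 0.656. Among the 23 members of at least 5 bins they were 0.562 and 0.620, where all genes of that size had 0.908 and 0.892. Members were thus ordered less alike than genes at large, also among genes of at least 5 bins. At that size members also had a narrower range of levels, with quartiles of 0.90% and 1.23% in the first library. All genes of that size had 1.31% and 1.95%. Members overlapped fewer bins, with a median of 6 against 8.5. The part of range and bin number in the lower rho was not tested. These are descriptions across genes, which share libraries and, in arrays, also bins.

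Tandem clusters were runs of at least 2 members with gaps of at most 100 kb. They held 67 members in 18 clusters, and 25 members stood alone. Tandem genes had medians of 1.01%, 1.03% and 0.98%, and single genes 1.203%, 1.21% and 1.18%. Tandem genes were lower in each library, although the ranges of both kinds overlapped. Of the tandem genes, 27 (40.3%) were below the lower quartile of all genes in every library. Among single genes only Cyp2e1, which encodes an ethanol-oxidising liver enzyme, was, with 0.97%, 1.05% and 1.03%.

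**Figure D1:**
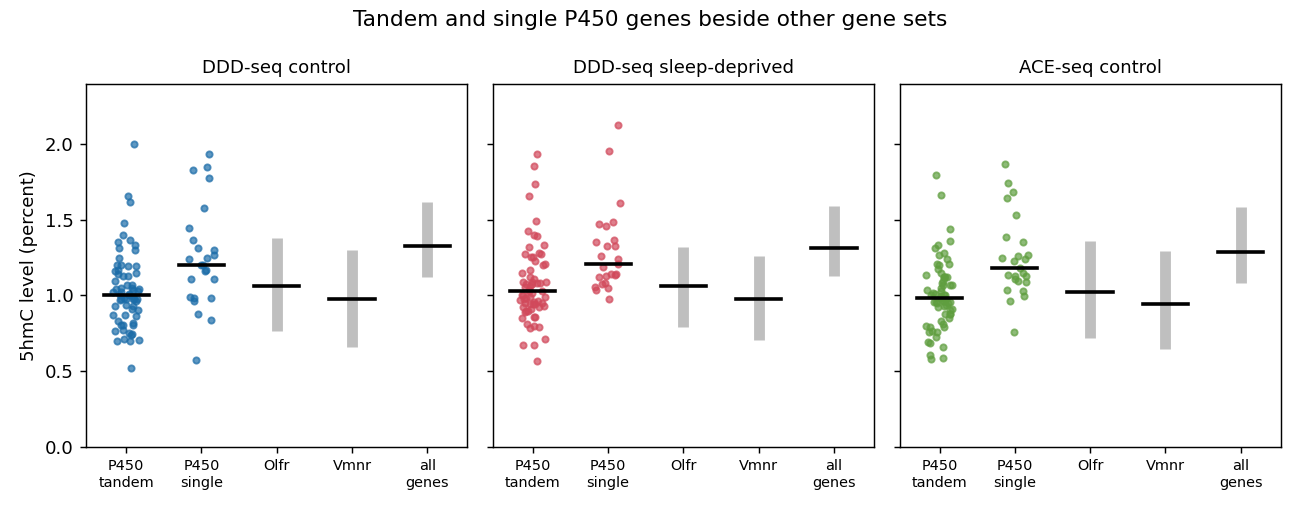
Points show the 5hmC level in percent of each tandem (n = 67) and single (n = 25) P450 gene in each library, with black lines at the medians, and grey bars span the quartiles of 1103 olfactory receptor genes, 337 vomeronasal receptor genes and all 21672 protein-coding genes. The medians of tandem P450 genes lie near those of both receptor families, below those of single P450 genes.

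Family and arrangement largely coincide, since 61 of the 67 tandem genes belong to families 2, 3 and 4. Within these families the 10 single genes had medians of 1.16%, 1.16% and 1.13%, and the 61 tandem genes 1.001%, 1.001% and 0.96%. The 15 single genes of the remaining families had 1.30%, 1.24% and 1.26%. Olfactory receptor genes, an arrayed family of nasal receptors, had 1.06%, 1.06% and 1.02%, with 20.1% under the lower quartile in every library. Vomeronasal receptor genes had 0.98%, 0.98% and 0.94%, with 29.7%. Low 5hmC was thus shared by tandem P450 genes and these 2 receptor families, whose genes overlapped a median of 1 bin. A pooled set of several other families was less low. It holds 73 genes of conjugating enzymes and esterases, many of them in arrays and some alone, which overlapped a median of 3 bins. They had 1.19%, 1.19% and 1.13%, nearer to single than to tandem P450 genes, with 12.3% under the lower quartile in every library. The pooled median does not describe each array. Genes of the Sult2a array on chromosome 7 ran from 0.71% at Sult2a8 to 1.23% at Sult2a2 in the first library.

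At most P450 loci the low level covered the full span of the locus, with the stretches between members included. Bins between members are those that no member overlaps, and they can hold other genes. At the Cyp3a locus they hold Cyp3a41a and Cyp3a41b, P450 genes outside the symbol pattern. Members within 500 kb of each other form 8 loci of at least 3 genes. In 7 of them the mean over the full span was lower than over the 500 kb on either side in all 3 libraries. The difference in the first library was widest at the Cyp2c locus (GRCm38 chr19:39006940-40187286, 14 genes). There the means over 119 bins were 0.90% ± 0.04, 0.98% ± 0.03 and 0.97% ± 0.04 (SE over bins). The 100 bins on its sides had 1.59% ± 0.05, 1.56% ± 0.05 and 1.48% ± 0.06. The sides were 1.75, 1.59 and 1.52 times as high. Bins between the Cyp2c genes had 0.90%, 1.01% and 1.0%, and bins on the genes 0.91%, 0.97% and 0.96%, so both were low there.

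The Cyp3a locus (chr5:145345149-146114978, 6 genes) had 0.94%, 0.97% and 0.90% inside, and 1.40%, 1.44% and 1.43% on its sides. The Cyp2j locus (chr4:96042660-96664171, 7 genes) had 1.17%, 1.19% and 1.05%, with 1.66%, 1.53% and 1.55% on its sides. The locus of Cyp2a, Cyp2b, Cyp2f, Cyp2g, Cyp2s and Cyp2t genes (chr7:25802469-27158564, 13 genes) had 1.03%, 0.94% and 0.96%, with 1.33%, 1.32% and 1.21% on its sides. At these loci, and at the Cyp2d locus, the gap exceeded 3 times its SE over bins in every library. The Cyp4a, Cyp4b and Cyp4x locus on chromosome 4 had 0.97%, 1.02% and 0.96% against 1.32%, 1.23% and 1.22%. The Cyp2d locus had 1.18%, 1.17% and 1.10% against 1.43%, 1.39% and 1.41%, and the Cyp4f locus on chromosome 17 1.22%, 1.21% and 1.12% against 1.43%, 1.45% and 1.51%. The exception was the locus of Cyp1a1, Cyp1a2 and Cyp11a1 on chromosome 9, with 1.35%, 1.35% and 1.28% inside and 1.31%, 1.34% and 1.34% on its sides. Taken alone, the bins between members were also below the sides in every library at all loci but that one. At the Cyp4f locus, however, they had 1.36%, 1.35% and 1.22%, near its sides by DDD-seq. Bins on members had 1.06%, 1.05% and 1.01% there, so in the DDD-seq libraries the low level lay mainly on the members. At the chromosome 9 locus the bins between members had 1.40%, 1.39% and 1.31% and those on members 1.205%, 1.22% and 1.197%.

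**Figure D2:**
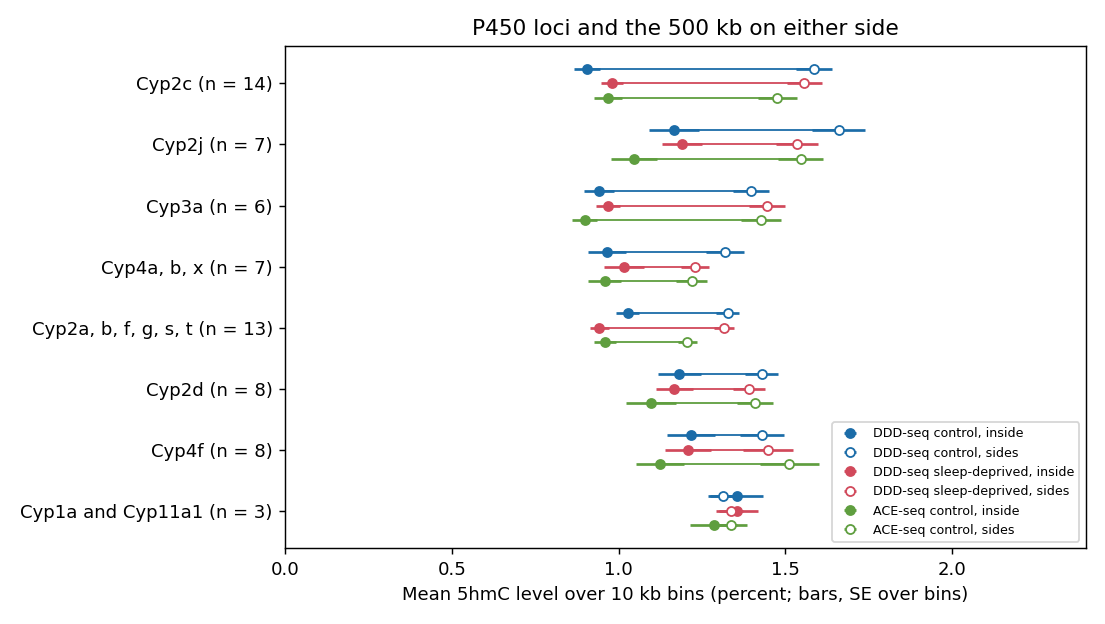
Filled points show the mean 5hmC level in percent over the 10 kb bins of each P450 locus and open points that of the 500 kb on either side, with bars for the SE over bins and a colour for each library. In 7 of 8 loci the filled points lie left of the open ones in all 3 libraries.

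With narrower sides of 100 kb the picture was less even. Of the 18 clusters, 11 were lower than their sides in all 3 libraries and 1, Cyp2j13 with Cyp2j12, was higher in all 3. Of the 25 single genes, 11 were lower than their own sides in all 3 libraries and 5 were higher. The cluster of Cyp2c29 to Cyp2c69 had 0.93%, 0.89% and 0.93% over 52 bins and 0.81%, 0.86% and 1.14% on its 100 kb sides, which lie within the wider Cyp2c locus. A level of 0 was listed for 5, 0 and 3 of the 240 tandem bins. Of all autosomal genic bins 0.328%, 0.212% and 0.355% were at 0, and of tandem bins 2.08% in the first library. With bins at 0 left out, tandem minus single medians were -0.18, -0.18 and -0.20 points.

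**Figure D3:**
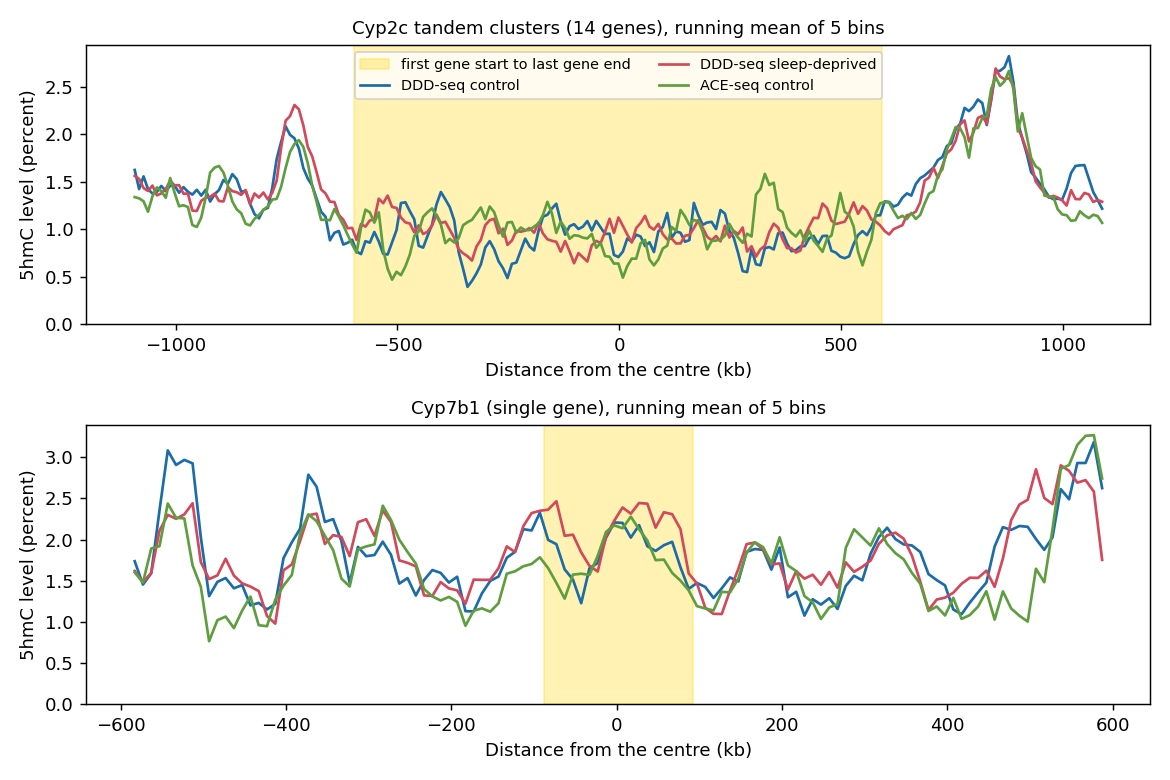
The 5hmC level in percent is plotted as a running mean of 5 bins against the distance in kb from the centre of the 14 clustered Cyp2c genes (upper) and of Cyp7b1 (lower), with a line per library and the gene span shaded. The Cyp2c span is lower than its surroundings in all 3 libraries, whereas Cyp7b1 lies within the range of its own.

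The promoters of tandem genes were poor in CG, the dinucleotide at which most cytosine methylation is found. Counts were made in the 250 bases before the start site of RefSeq promoters (GRCm38.p6), where CG reads the same on both strands. A promoter was matched for 56 of 67 tandem genes, and their median was 2 CG, against 10 over the 17403 matched promoters of all genes. At least 5 CG were found in 5.36% of the tandem promoters and in 66.1% of all promoters. No CG was found in 14.3% and 7.30%. A promoter entry was found for 80.3% of all genes, so the reference is also incomplete. It was found for only 16 of 25 single genes and for 72 of all 92 members (78.3%). The same counts over single genes and over all members are not compared here. The part of CG density in the level of a 10 kb bin was not tested.

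Promoters of 4 members are printed to show what many and few CG look like. Cyp1b1 and Cyp20a1 stand alone and Cyp2c39 and Cyp3a11 in arrays, and they were picked as examples after the counts were seen. They do not stand for single against tandem genes: the tandem Cyp26a1 has 20 CG, and the single Cyp27b1 1. Each is printed 5′ to 3′ on the strand of its gene, and capitals mark each CG, of which Cyp1b1 has 12, Cyp20a1 15, Cyp2c39 1 and Cyp3a11 2. The windows are chr17:79715062-79715311 (minus strand), chr1:60343050-60343299 (plus), chr19:39347096-39347345 (plus) and chr5:145879855-145880104 (minus).
Cyp1b1: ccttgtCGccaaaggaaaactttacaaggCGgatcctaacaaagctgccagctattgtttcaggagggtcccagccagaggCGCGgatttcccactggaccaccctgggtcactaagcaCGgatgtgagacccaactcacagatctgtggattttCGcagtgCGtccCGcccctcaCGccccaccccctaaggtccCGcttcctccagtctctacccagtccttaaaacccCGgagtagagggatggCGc
Cyp20a1: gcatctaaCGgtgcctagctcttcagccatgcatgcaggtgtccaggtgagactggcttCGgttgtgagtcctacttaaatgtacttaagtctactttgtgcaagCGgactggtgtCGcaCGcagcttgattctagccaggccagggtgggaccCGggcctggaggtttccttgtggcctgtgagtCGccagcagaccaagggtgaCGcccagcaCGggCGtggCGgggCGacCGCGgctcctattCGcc
Cyp2c39: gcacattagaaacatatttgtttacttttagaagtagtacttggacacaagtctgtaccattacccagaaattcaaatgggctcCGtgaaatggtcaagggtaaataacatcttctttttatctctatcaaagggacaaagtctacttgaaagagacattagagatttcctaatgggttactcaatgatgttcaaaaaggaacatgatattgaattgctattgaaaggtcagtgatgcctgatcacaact
Cyp3a11: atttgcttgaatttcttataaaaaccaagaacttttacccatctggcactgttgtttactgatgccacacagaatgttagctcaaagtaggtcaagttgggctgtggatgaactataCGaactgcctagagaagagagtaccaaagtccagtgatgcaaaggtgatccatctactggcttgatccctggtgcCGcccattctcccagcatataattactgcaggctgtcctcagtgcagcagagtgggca
The bin with the start site had 1.08%, 1.48% and 1.44% at Cyp1b1 and 1.495%, 1.40% and 1.78% at Cyp20a1. It had 0.33%, 1.04% and 0.62% at Cyp2c39 and 1.05%, 0.68% and 1.04% at Cyp3a11. The single gene Cyp27a1, picked as a further example, had 0.84%, 1.03% and 0.77%, between both arrayed genes in each library. Picked examples cannot show whether start-site bins differ by arrangement. Over the genes with a matched promoter, the medians of these bins were 0.98%, 1.08% and 0.997% at 56 tandem genes. They were 1.12%, 1.19% and 1.05% at the 16 of 25 single genes that had a match.

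Among the subfamilies of several genes in families 2, 3 and 4, the lowest medians in the first library were those of Cyp4a, Cyp3a and Cyp2c. In the sleep-deprived and ACE-seq libraries Cyp2b had the lowest, with 0.81% and 0.76%. The 7 Cyp3a genes, whose products oxidise a wide range of drugs and steroids, had medians of 0.86%, 0.94% and 0.95%, and 5 of them were under the lower quartile of all genes in every library. Cyp3a59 had 0.70%, 0.89% and 0.66%, and Cyp3a11, a main inducible hepatic member, had 0.80%, 0.56% and 1.05%. Both were among the 5 lowest members by the mean of the 3 libraries. In their cluster Cyp3a44 was the highest in the first library, with 1.15%, 1.17% and 0.77%. Cyp3a57 had 0.86%, 0.98% and 0.95%, and its neighbour Cyp3a16 0.77%, 0.94% and 0.90%. Cyp3a13, the only single gene of the subfamily, had 1.202%, 1.37% and 1.15%, the highest DDD-seq values among these 7 genes.

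The 15 Cyp2c genes encode drug hydroxylases and arachidonic acid epoxygenases. Their medians were 0.93%, 1.005% and 0.95%, and 9 of them were under the lower quartile in every library. Cyp2c39 had 0.98% ± 0.09 (SE over 23 bins), 0.86% and 0.96%. Its gene model contains that of Cyp2c38 (1.01%, 0.93% and 1.002%), and both share 9 bins. In the cluster that starts with Cyp2c29, Cyp2c40 was the highest in the first library (1.02%, 0.99% and 0.87%) and Cyp2c69 the lowest (0.75%, 0.95% and 0.91%). In the cluster of Cyp2c37, Cyp2c70 was the highest (1.03%, 1.07% and 0.95%) and Cyp2c50 the lowest (0.52%, 1.03% and 1.44%). In that of Cyp2c55 they were Cyp2c66 (1.05%, 1.01% and 1.07%) and Cyp2c65 (0.70%, 1.32% and 0.58%). The 3 highest genes spanned at most 0.15 points over the libraries. In contrast, Cyp2c65 was the highest of its cluster after sleep deprivation and Cyp2c50 the highest of its own by ACE-seq. Cyp2c23, a single epoxygenase gene, had 1.24%, 1.06% and 1.247%.

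The 4 Cyp2a genes, coumarin and steroid hydroxylases, had medians of 1.02%, 1.14% and 1.04%. The 5 Cyp2b genes, a subfamily known for induction by phenobarbital, had 1.01%, 0.81% and 0.76%. Cyp2b19, known from keratinocytes, had 0.75%, 0.67% and 0.76%, and Cyp2b13 had 0.96%, 0.67% and 0.61%. These were the lowest members of all by the mean of the 3 libraries. In the cluster of Cyp2b13 the highest was Cyp2a4 with 1.13%, 1.03% and 0.96%. In the cluster of 8 genes that starts with Cyp2b23, that gene was the highest in the first library but not in the others, with 1.40%, 0.95% and 0.58%. The neighbours Cyp2s1 and Cyp2b10 had 1.07%, 1.21% and 1.36%, and 1.2%, 0.90% and 1.07%. Cyp2g1, known from olfactory mucosa, had 1.14%, 0.71% and 1.12%, and Cyp2f2, known from lung, 1.197%, 1.204% and 1.12%.

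The 8 Cyp2d genes had medians of 1.15%, 1.26% and 0.99%. Cyp2d22, which is expressed in mouse brain, was the highest member of all in the first library, with 2.0% ± 0.50 (SE over 2 bins), 1.94% and 1.14%. It was high in both DDD-seq libraries and not by ACE-seq. Cyp2d22 shares 1 of its 2 bins with Cyp2d11 (1.66%, 1.86% and 1.01%). In a single bin, Cyp2d12 was the lowest of that cluster in the first library and the highest by ACE-seq, with 0.94%, 1.255% and 1.66%. Cyp2d26 had 1.04%, 1.40% and 0.98%, and its neighbour Cyp2d40 0.97%, 1.08% and 0.88%.

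The 7 Cyp2j genes, arachidonic acid epoxygenases, had medians of 1.17%, 1.23% and 1.002%. Cyp2j12 was the only tandem gene above the median of all genes in every library, with 1.62% ± 0.52 (SE over 6 bins), 1.66% and 1.80%. Its neighbour Cyp2j13 had 1.17%, 1.09% and 1.02%. In the other Cyp2j cluster Cyp2j5 was the highest in the first library (1.34%, 0.94% and 0.94%) and Cyp2j8 the lowest (0.93%, 1.23% and 0.68%). Cyp2j9, a brain-expressed member, had 1.31%, 1.49% and 0.93%.

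Cyp4a genes, fatty acid omega-hydroxylases known as PPARalpha targets, had medians of 0.71%, 0.91% and 0.95% over 5 genes. Cyp4a14 had 0.70%, 0.85% and 0.80%, and Cyp4a31, the highest of its cluster in the first library, 1.30%, 0.79% and 1.18%. Cyp4a29 had 0.58%, 1.08% and 1.23%, so it was lowest in the first library. It counts as single here only because the symbol pattern leaves out Cyp4a12a, which lies less than 100 kb away. The 9 Cyp4f genes, which hydroxylate leukotrienes and long-chain fatty acids, had medians of 1.04%, 0.99% and 1.12%. Cyp4f39 had 1.13%, 1.08% and 0.98%, and Cyp4f40 0.81%, 1.06% and 0.79%, the highest and lowest of their cluster in the first library. In the neighbouring cluster Cyp4f13 had 1.37%, 1.12% and 1.202% and Cyp4f14, a leukotriene B4 hydroxylase gene, 0.97%, 0.99% and 1.24%. The single Cyp4f18 had 1.247%, 0.98% and 1.13%. Cyp4x1, a brain-expressed member, had 1.11%, 1.46% and 1.09%, and Cyp4v3, a fatty acid hydroxylase gene, 1.203%, 1.14% and 1.35%.

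**Figure D4:**
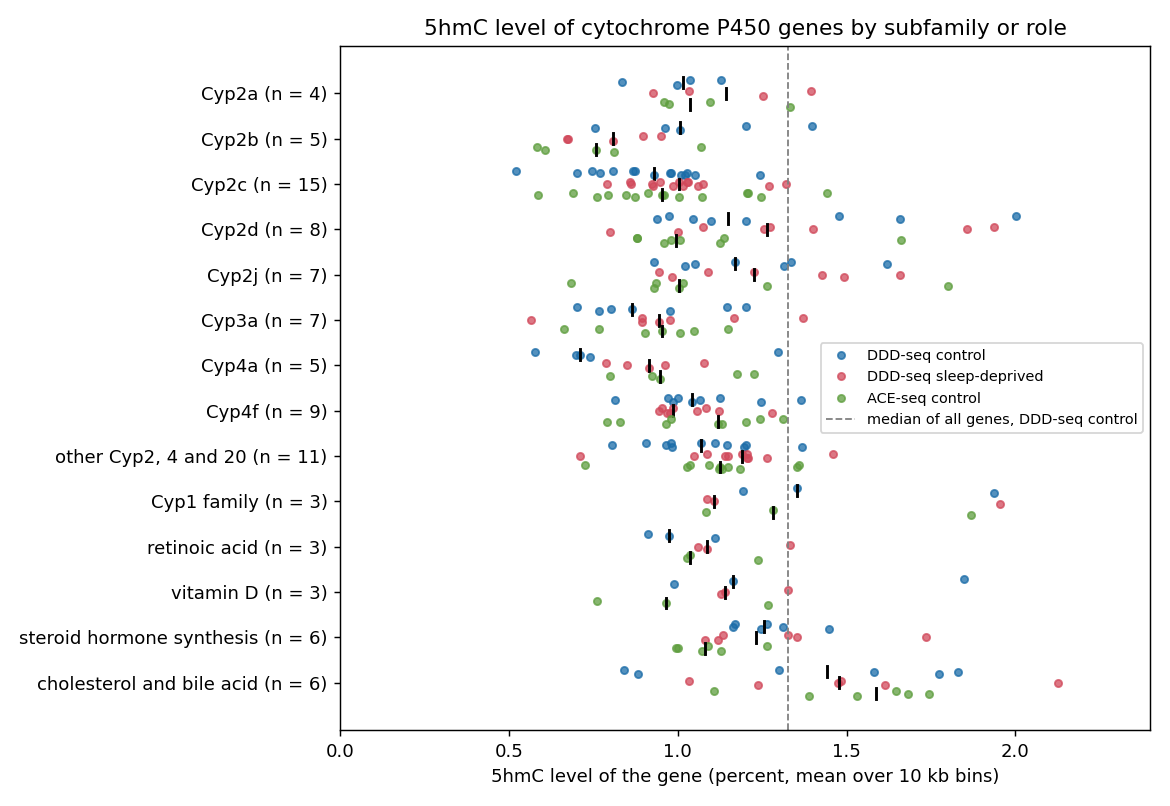
Points show the 5hmC level in percent of each P450 gene, grouped by subfamily or role, with a colour for each library and black marks at the medians. The dashed line is the median of all genes by DDD-seq of the control, 1.33%. The drug-metabolising subfamilies lie mostly left of it, and the genes of cholesterol and bile acid metabolism spread across it.

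Genes of cholesterol and bile acid metabolism had the highest medians of the roles compared, with 1.44%, 1.48% and 1.59% over 6 genes. Cyp46a1, the neuronal cholesterol 24-hydroxylase that starts cholesterol removal from brain (chr12:108334268-108362234), had 1.58% ± 0.23 (SE over 4 bins), 1.47% and 1.68%. Its 100 kb sides had 1.54%, 1.63% and 1.65%. Cyp7b1, an oxysterol 7alpha-hydroxylase (chr3:18071944-18243890), had 1.83% ± 0.18 (SE over 18 bins), 2.12% and 1.74%, with 1.66%, 1.68% and 1.49% on its 100 kb sides. Cyp39a1, which hydroxylates 24-hydroxycholesterol (chr17:43667372-43751431), had 1.77% ± 0.18 (SE over 10 bins), 1.61% and 1.39%, with 1.48%, 1.47% and 1.40% on its sides. All 3 were above the median of all genes in every library, but of them only Cyp7b1 also exceeded its own sides in every library. Cyp7a1, the rate-limiting hepatic enzyme of bile acid synthesis, had 0.84%, 1.48% and 1.64% over 2 bins. Cyp8b1, the sterol 12alpha-hydroxylase of cholic acid synthesis, had 0.88%, 1.24% and 1.53% in 1 bin, and Cyp27a1, the mitochondrial sterol 27-hydroxylase, 1.30%, 1.03% and 1.11%.

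Genes of steroid hormone synthesis had medians of 1.26%, 1.23% and 1.08% over 6 genes. Cyp19a1, aromatase, had 1.45% ± 0.07 (SE over 11 bins), 1.12% and 1.13%. Cyp11a1, the side-chain cleavage enzyme that makes pregnenolone, had 1.17%, 1.33% and 1.26%, and Cyp17a1, the 17alpha-hydroxylase, 1.31%, 1.35% and 0.999%. Cyp21a1, the 21-hydroxylase, had 1.27%, 1.13% and 1.09% in 1 bin. The adrenal genes Cyp11b1 and Cyp11b2, which act in corticosterone and aldosterone synthesis, had 1.16%, 1.74% and 0.99%, and 1.246%, 1.08% and 1.07%. None of the 6 was above the median of all genes by ACE-seq.

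Of the vitamin D genes, Cyp2r1 (25-hydroxylase) had 1.85%, 1.33% and 0.76%, Cyp27b1 (1alpha-hydroxylase) 1.16%, 1.14% and 0.97% and Cyp24a1 (24-hydroxylase) 0.99%, 1.13% and 1.27%. The 2 bins of Cyp2r1 lie in a region of high 5hmC, with 2.96%, 2.88% and 2.61% on its 100 kb sides. Of the retinoic acid hydroxylase genes, Cyp26a1 had 0.97%, 1.06% and 1.03%, Cyp26b1 1.11%, 1.09% and 1.24% and Cyp26c1 0.91%, 1.33% and 1.04%. All 3 were below the median of all genes in both control libraries. Cyp1b1, which oxidises estradiol and polycyclic hydrocarbons, had 1.94% ± 0.86 (SE over 2 bins), 1.95% and 1.87%, the highest mean of the 3 libraries of any member. The adjacent genes Cyp1a1 and Cyp1a2, targets of the aryl hydrocarbon receptor, had 1.19%, 1.11% and 1.08%, and 1.35%, 1.09% and 1.28%. Among the other single genes, Cyp20a1 had 1.37%, 1.21% and 1.18%, Cyp2u1, a fatty acid hydroxylase gene expressed in brain, 0.98%, 1.26% and 1.13%, and Cyp2w1 0.98%, 1.19% and 1.04%.

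A further 7 P450 genes miss the symbol pattern. Cyp51, the lanosterol 14alpha-demethylase of cholesterol synthesis, had 1.73%, 1.59% and 1.87%, and Cyp2ab1 1.30%, 1.17% and 1.16%. The remaining 5, from the Cyp3a and Cyp4a arrays, lay between 0.64% at Cyp4a12a and 1.33% at Cyp3a41b in the first library. These last were named after their values were seen.

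Partner genes of the P450 system had higher medians than the tandem P450 genes. Of 9 redox partners 8 were found, with medians of 1.54%, 1.78% and 1.44%. Por, the reductase of microsomal P450s, had 1.42% ± 0.17 (SE over 7 bins), 1.24% and 1.35%. In the first library Pgrmc1, a heme-binding partner on chromosome X, was the highest with 2.96%, and Cyb5r3, a cytochrome b5 reductase gene, the lowest with 0.96%. The 20 regulators of P450 transcription had 1.31%, 1.27% and 1.248%, from 0.97% at Ahrr to 2.07% at Arnt, the partner of the aryl hydrocarbon receptor. Sterol and steroid partners (13 genes) had 1.31%, 1.19% and 1.13%, from 0.96% at Hsd17b3 to 1.74% at Hsd3b7. Retinoid partners (9 genes) had 1.255%, 1.203% and 1.39%, from 0.81% at Crabp2 to 1.65% at Aldh1a1. Conjugating enzymes and esterases (73 genes), many of them also in arrays, had 1.19%, 1.19% and 1.13%. Of these, 9 (12.3%) were under the lower quartile in every library. They ran from 0.70% at Sult1e1 to 1.85% at Sult1b1.

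In the sleep-deprived library P450 genes were about as often higher as lower. The median difference from the DDD-seq control was 0.0204 points, with 49 members higher and 43 lower. Over all genes it was -0.00434 points, with 10475 higher and 11039 lower. At least 25% higher were 21 members, or 22.8%, where 11.0% of all genes were. At least 20% lower were 12 members, or 13.0%, where 11.9% of all genes were. In either direction it was 33 members (35.9%), against 22.9% of all genes and 28.0% of all genes of 1 to 6 bins. Among genes of at least 5 bins it was 7 of 23 members against 5.67%. With the mean of the 3 libraries also under 1.2%, it was 5 of 17 members against 14.9%. The SE of the difference was also larger at members of at least 5 bins, with a median of 0.19 points against 0.14 over all genes of that size. The part of read depth in this was not tested.

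Of the 23 members of at least 5 bins, 1 differed by more than 3 SE, where 1.76% of all genes of that size did. This was Cyp19a1, with a sleep-deprived minus control difference of -0.33 ± 0.09 points. Among members of at least 3 bins the largest positive differences were 0.62 ± 0.42 points at Cyp2c65, 0.51 ± 0.19 at Cyp2c50 and 0.38 ± 0.22 at Cyp2j6, an epoxygenase gene. The largest negative ones were -0.45 ± 0.27 points at Cyp2b23, -0.43 ± 0.33 at Cyp2g1 and -0.39 ± 0.37 at Cyp2j5. At Cyp7b1, the single gene with the most bins, the difference was 0.29 ± 0.19 points, and at Cyp46a1 -0.11 ± 0.21. Over whole loci it was 0.08 ± 0.05 points at Cyp2c, 0.03 ± 0.05 at Cyp3a and -0.08 ± 0.05 at the Cyp2a to Cyp2t locus. None of the 8 loci differed by 2 SE or more.

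**Figure D5:**
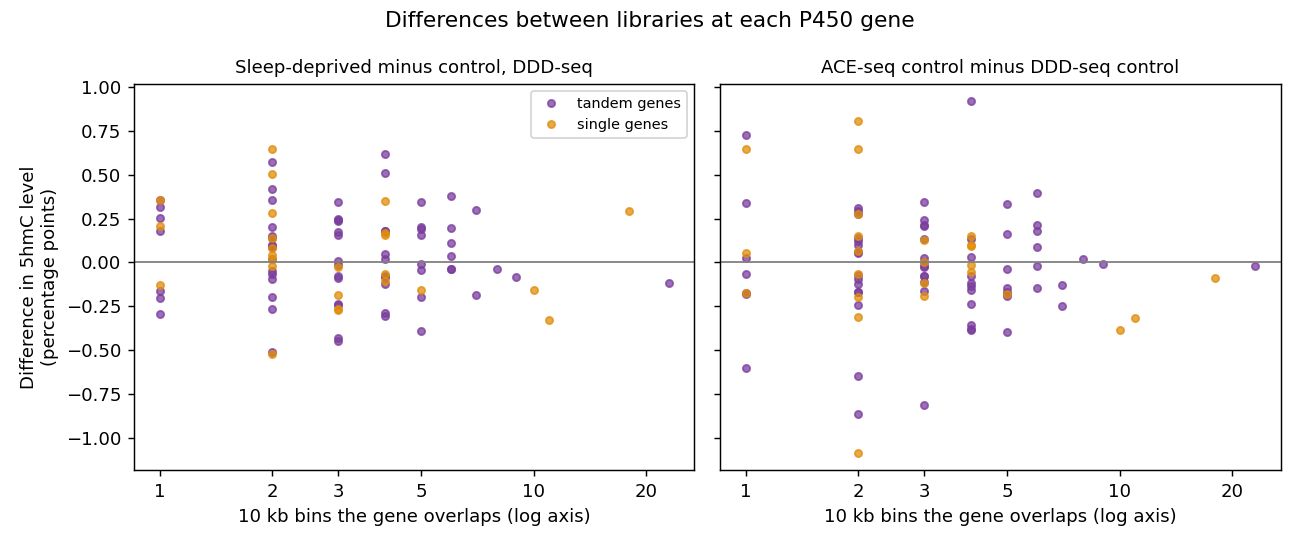
Each point is a tandem (purple) or single (orange) P450 gene, plotted by the number of 10 kb bins it overlaps (log axis) and its difference in 5hmC level in percentage points, for sleep-deprived minus control by DDD-seq (left) and ACE-seq minus DDD-seq of controls (right). Points lie on both sides of 0, and Cyp2c39, with 23 bins, lies at -0.12 and -0.02 points.

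The ACE-seq control was set against the same DDD-seq control, so both comparisons share that library. The median difference over members, ACE-seq minus DDD-seq, was -0.0328 points, with 40 higher and 52 lower. Over all genes it was -0.0385 points, with 9201 higher and 12298 lower. At least 25% higher were 16 members (17.4%, all genes 11.1%), and at least 20% lower 15 members (16.3%, all genes 15.9%). In either direction it was 31 members (33.7%), against 27.1% of all genes. Of all genes of 1 to 6 bins it was 32.8%, near the share of members. Among genes of at least 5 bins it was 7 of 23 members against 8.21%, and with a mean under 1.2% 5 of 17 against 18.4%. None of the 23 members differed by more than 3 SE, where 2.09% of all genes of that size did. The largest positive differences among members of at least 3 bins were 0.92 ± 0.17 points at Cyp2c50, 0.40 ± 0.26 at Cyp2c29 and 0.34 ± 0.13 at Cyp4b1. The largest negative ones were -0.81 ± 0.18 points at Cyp2b23, -0.40 ± 0.20 at Cyp2j5 and -0.39 ± 0.19 at Cyp39a1. At Cyp19a1 the difference was -0.32 ± 0.12 points. A difference of the condition or method and one of that control column cannot be told apart.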

How the data were processed

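5hmC was measured in 3 cerebellum libraries. The authors' deposited table gives a fraction (0 to 1) per 10 kb bin, as its values show, which was multiplied by 100. The submitters' processing notes name FastQC, Trimmomatic, Bismark and the human build hg19. The bins cover 21 mouse chromosomes and end 1.33 to 211.9 kb after the last RefSeq gene of GRCm38.p6, so GRCm38 was used. The averaging and filtering of sites are not given in these sources. Per the file headers the DDD-seq columns may pool several runs or libraries. Reads from similar tandem copies can be lost or misplaced in alignment, which was not tested.

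Of 264399 bins, 262974 had a value in every library and were kept. A bin counted for a gene from 1 bp of overlap. The text names each cluster with its highest and lowest member in the DDD-seq control, all single members, the 5 highest and 5 lowest members, the 3 largest differences each way among members of at least 3 bins, members with a role in brain, and the ends of each list. Members, lists and rules were chosen with earlier results of these data known. Gene averaging was tested on simulated data. Alternatives changed the bins used, the minimum of bins, the cluster rule and the change bound. The work used Python 3.11.15 with pandas 2.3.3 and numpy 2.4.6, and matplotlib 3.10.9 for figures.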

Additional observations from a re-analysis of the deposited data

How the results depend on the processing

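No paired analysis was possible because each group has 1 column of values. Of 103 values under other settings, 80 stayed within the SE over members of the reported value (counts: within 1.5 times), 20 moved further and 3 turned sign. Tandem genes were lower than single genes under every setting run in each library, from -0.63 to -0.0973 points (tandem minus single). With only bins whole inside the gene (57 members), the median level was 1.10% in the DDD-seq control. Tandem minus single was then -0.45 points there and -0.32 by ACE-seq, and ACE-seq minus DDD-seq was -0.0849. With members of at least 3 bins, the median after sleep deprivation was 1.03% and tandem minus single by ACE-seq -0.29. Members past the 25% rise or 20% fall then numbered 20 of 57 after sleep deprivation and 17 of 57 by ACE-seq. As shares these were 35.1% and 29.8%, where those of all 92 members were 35.9% and 33.7%. Of all genes of at least 3 bins 11.1% and 14.6% passed. With at least 5 bins (23 members), the median was 1.005% after sleep deprivation and 0.98% by ACE-seq. Tandem minus single was -0.63 ± 0.16, -0.43 ± 0.29 and -0.33 ± 0.19 points (SE over members), and ACE-seq minus DDD-seq was -0.0864. The only single genes left at this size were Cyp7b1, Cyp39a1, Cyp19a1 and Cyp20a1, so these tandem minus single values rest on few genes. Below the lower quartile of genes of that size in every library lay 16 members, for which no share of all genes is given. The change bound was passed by 7 and 7 members (30.4% each), against 5.67% and 8.21% of all genes of that size. Clusters with gaps of at most 50 kb gave -0.0973 after sleep deprivation. At a change of 1.5-fold or more either way, 6 and 11 of the 92 members passed. No share of all genes is given at that bound, so these counts cannot be called high or low. The sleep-deprived minus control median turned to -0.0752 with whole bins, -0.0246 with at least 3 bins and -0.0354 with at least 5. Fewer members remain under these minimums, and the cause was not tested further. Families 2, 3 and 4 alone and the addition of 7 P450 genes were settings chosen after seeing the data. The unknown depth limits what can be said of genes of few bins.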
